A study of Mus musculus with 2 samples.

Results

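The MHC class I presentation genes are 10 genes that carry a peptide from the cytosol to the cell surface, and their transcripts were followed in every cell class of mouse pancreatic tumors. They were taken by name from the 32285 genes of the count files, and all 10 were found: H2-K1, H2-D1, B2m, Tap1, Tap2, Tapbp, Psmb8, Psmb9, Psmb10 and Nlrc5. MHC class I is made by nearly every nucleated cell. Its peptides are cut in the proteasome, whose catalytic subunits can be exchanged for the inducible subunits Psmb8, Psmb9 and Psmb10 to form the immunoproteasome. The transporter of Tap1 and Tap2 pumps them into the endoplasmic reticulum, and tapasin (Tapbp) holds the empty class I molecule beside it. There the heavy chains H2-K and H2-D (H2-K1, H2-D1) pair with beta-2 microglobulin (B2m) and take up the peptide that CD8+ T cells inspect. Nlrc5 is a transactivator of these genes, and interferons are well known to induce them.

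The tumors grew in male C57BL/6J mice of 5 to 6 weeks, after implantation of K210 cells into the pancreas. This line came from a spontaneous tumor of an engineered mouse whose alleles included Trp53 fl/fl and Pdx1-Cre, in which Cre acts in the pancreatic lineage. Treatment began after 7 days and was given into the peritoneum every 3 days, with PBS as the vehicle or with cmExoaCD11b, exosomes that carried cGAMP (an agonist of STING, 5 µg per mouse) and IL-12 mRNA and bore an anti-CD11b antibody. Cells of the tumors were collected 48 h after treatment, and those of 3 mice were pooled into 1 droplet library per treatment. The preparation is described in the study as immune cells, and the keratin-expressing tumor cells described here were found in it by their genes. One transplanted line stands for the tumor cells, and the pooled mice cannot be told apart, so differences between the treatments could not be set against a spread of replicates, and none was tested.

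Cells kept after filtering numbered 6831 in PBS (50170007 UMIs, unique molecular identifiers, each a counted transcript) and 7063 in cmExoaCD11b (62046128 UMIs), and 16 barcodes were kept in both. Cells were sorted into 14 classes by the UMIs of marker genes, and each class is called by the cell type of its gate, which means cells like that type. From PBS and cmExoaCD11b they held 34 and 30 keratin-expressing tumor cells, 391 and 137 macrophages, 113 and 189 monocytes, 13 and 49 type 1 dendritic cells (DCs, with Xcr1 or Clec9a) and 31 and 53 other DCs. There were 104 and 180 neutrophil precursors, 912 and 1410 granule neutrophils (with genes such as Ltf, Camp and Ngp) and 3330 and 2607 other neutrophils. Lymphocytes comprised 140 and 374 CD8 T cells, 136 and 231 CD4 T cells, 107 and 313 cells of the T cell gate without Cd4 or Cd8, 26 and 77 NK cells, 224 and 255 B cells, and 51 and 127 plasma cells. Genes of gamma delta T and NK cells (Trdc, Tcrg-C1, Klrb1c, Ncr1) were among the leading genes of the T cell gate without Cd4 or Cd8, which is therefore called by its gate. None of their own gate markers was among the 10 leading genes of tumor cells, plasma cells, other neutrophils or that T cell gate.

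The label of the tumor cells was checked by sex-linked genes in the summed counts of the class, to which the cells with most UMIs contribute most. Their summed counts held 1998 and 1952 CPM (the UMIs of a gene for every 1000000 UMIs in the cells of the class) of Xist, which male cells do not use, and only 3.53 and 1.79 CPM of the Y-linked Ddx3y. In macrophages Xist was at 0.238 and 0.929 CPM and Ddx3y at 86.5 and 114. Epcam stood at 475 CPM in PBS and 220 in cmExoaCD11b tumor cells, and the mesothelial markers Upk3b, Wt1 and Lrrn4 and the acinar markers Prss2, Cpa1 and Ctrb1 were at 0 in both. Msln, a mesothelial gene that pancreatic tumors also use, was at 274 and 276 CPM, and the acinar gene Cela1 at 45.9 and 16.1. The leukocyte gene Ptprc was at 18.8 and 14.3 CPM, while the neutrophil genes S100a8 and S100a9 were at 1147 and 1662 CPM in PBS and 228 and 418 in cmExoaCD11b. Free RNA, estimated from these neutrophil genes in T and B cells, made up 2.64% and 3.22% of UMIs.

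The promoters of 8 of the 10 members were matched in RefSeq (mouse build GRCm38.p6), as windows from 250 bases before to 50 bases after the transcript start. The 5 that follow are shown as examples, while those of Tapbp, Psmb9 and Psmb10 are not printed, and Tap2 and Nlrc5 had none. Capitals mark every match to 5 short motifs searched on both strands. The motifs were AANNGAAA (the core bound by interferon regulatory factors), GGGATTCCC (a kappa B site), TGACG (the core of the cAMP response element), CCAAT (the CCAAT box) and TTCNNNGAA (the GAS element, a gamma-activated site). H2-K1 lies at chr17:34000298-34000597 on the minus strand, H2-D1 at chr17:35262844-35263143, B2m at chr2:122147437-122147736, Tap1 at chr17:34187306-34187605 and Psmb8 at chr17:34197945-34198244, all 4 on the plus strand.
H2-K1: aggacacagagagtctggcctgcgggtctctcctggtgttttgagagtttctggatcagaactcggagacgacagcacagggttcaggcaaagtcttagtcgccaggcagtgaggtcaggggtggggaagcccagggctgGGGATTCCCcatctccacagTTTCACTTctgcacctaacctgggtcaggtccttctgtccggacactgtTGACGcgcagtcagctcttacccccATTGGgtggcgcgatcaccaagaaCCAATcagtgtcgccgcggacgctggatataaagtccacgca
H2-D1: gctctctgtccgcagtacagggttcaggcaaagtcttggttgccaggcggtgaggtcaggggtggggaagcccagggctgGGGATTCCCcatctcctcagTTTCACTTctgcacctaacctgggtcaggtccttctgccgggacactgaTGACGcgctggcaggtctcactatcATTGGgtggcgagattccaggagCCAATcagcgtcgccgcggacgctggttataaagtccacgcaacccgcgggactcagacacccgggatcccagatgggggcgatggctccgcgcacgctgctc
B2m: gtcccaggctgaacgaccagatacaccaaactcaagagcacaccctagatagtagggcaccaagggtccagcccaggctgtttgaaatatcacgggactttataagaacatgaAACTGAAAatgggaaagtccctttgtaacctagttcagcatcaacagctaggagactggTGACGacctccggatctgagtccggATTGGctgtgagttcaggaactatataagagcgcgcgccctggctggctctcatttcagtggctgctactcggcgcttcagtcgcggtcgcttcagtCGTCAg
Tap1: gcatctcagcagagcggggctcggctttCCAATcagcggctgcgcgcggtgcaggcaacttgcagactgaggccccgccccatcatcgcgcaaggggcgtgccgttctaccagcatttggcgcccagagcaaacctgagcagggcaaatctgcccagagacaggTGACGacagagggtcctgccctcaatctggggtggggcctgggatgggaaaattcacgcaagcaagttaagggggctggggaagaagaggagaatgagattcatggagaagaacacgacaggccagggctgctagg
Psmb8: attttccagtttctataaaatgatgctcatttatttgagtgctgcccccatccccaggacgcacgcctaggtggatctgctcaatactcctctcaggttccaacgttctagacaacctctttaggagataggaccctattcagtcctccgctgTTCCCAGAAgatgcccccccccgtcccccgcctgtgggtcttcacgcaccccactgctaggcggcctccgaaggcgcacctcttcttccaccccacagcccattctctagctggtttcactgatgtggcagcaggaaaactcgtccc
The windows of H2-K1 and H2-D1 shared an unbroken run of 47 bases, and in both the kappa B motif was followed by TTTCACTT (the reverse strand of AANNGAAA), TGACG and CCAAT, in that order. The kappa B motif was present in only 100 of 27025 promoter windows (0.370%). AANNGAAA was present in 24.2% of them, TGACG in 21.0%, CCAAT in 37.9% and TTCNNNGAA in 8.47%. B2m held AANNGAAA once, TGACG at 2 places and CCAAT once. Tap1 and Psmb9 are transcribed away from each other from a shared stretch, and 275 bases of their windows were the same, with 1 TGACG and 1 CCAAT. Psmb8 held the GAS element alone, and Psmb10 held none of the 5 motifs. Psmb9, Tap1, Psmb8 and Tap2 follow one another along chromosome 17 with no other gene between them in the RefSeq gene table.

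For each of the 10 genes, levels spread more widely between cell classes than the ratio between treatments did in any class. Each 3′ UMI counts a molecule once, so CPM of different genes were compared without division by length. B2m was the most abundant member in most classes. In PBS it ran from 669.6 CPM in granule neutrophils to 2803 in the T cell gate without Cd4 or Cd8, and in cmExoaCD11b from 1001 to 2822 CPM, the latter in CD8 T cells. H2-K1 followed the same order at its ends, from 303 CPM in granule neutrophils to 2625 in the T cell gate without Cd4 or Cd8 in PBS. H2-D1 was lowest in neutrophil precursors (698 CPM in PBS and 808 in cmExoaCD11b) and highest in NK cells (1766 and 1829). The heavy chains share near-identical stretches with each other and with the H2-Q genes, so reads may have been split between them and their single values are uncertain.

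Psmb8, Psmb9, Tap1 and Tap2 had another order, led in both libraries by type 1 DCs, the cells specialized in presenting captured antigen on class I. Psmb8 was at 965 CPM there in PBS and at 1033 in cmExoaCD11b, Psmb9 at 581 and 657, and Tap1 at 247 and 256. Tap2 was at 210 and 164 CPM in the same cells. Tapbp was led by type 1 DCs in PBS (235 CPM) but by other DCs in cmExoaCD11b (258), and Psmb10 by NK cells in PBS (162) and CD8 T cells in cmExoaCD11b (199). For Tapbp and Psmb10 the interval of the leading class over the next included 1 in both libraries, and NK cells of PBS held 13 UMIs of Psmb10. At the other end, tumor cells of PBS held 55.4 CPM of Psmb8, 24.7 of Psmb9, 14.1 of Tap1 and 15.3 of Tap2, the lowest level of each among the 14 classes. Nlrc5 was highest in the T cell classes, with 179.7 CPM in CD8 T cells, 197 in CD4 T cells and 211 in the T cell gate without Cd4 or Cd8 in PBS, and was at 2.78 CPM in granule neutrophils.

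Neighbors in these orders often did not differ beyond counting error. Of the 13 pairs of neighboring classes in PBS, the exact 95% interval of their ratio excluded 1 in 8 pairs for H2-K1, 7 for B2m and 7 for Psmb8, but in only 2 for Tap1, 1 for Tap2 and 1 for Tapbp. Type 1 DCs stood apart from the next class for Tap1, Psmb8 and Psmb9 in both libraries, but for Tap2 in neither. For Nlrc5 in PBS, no neighbors differed from the T cell classes through NK cells and type 1 DCs to B cells, nor from plasma cells through other neutrophils, tumor cells and other DCs to monocytes.

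**Figure D1:**
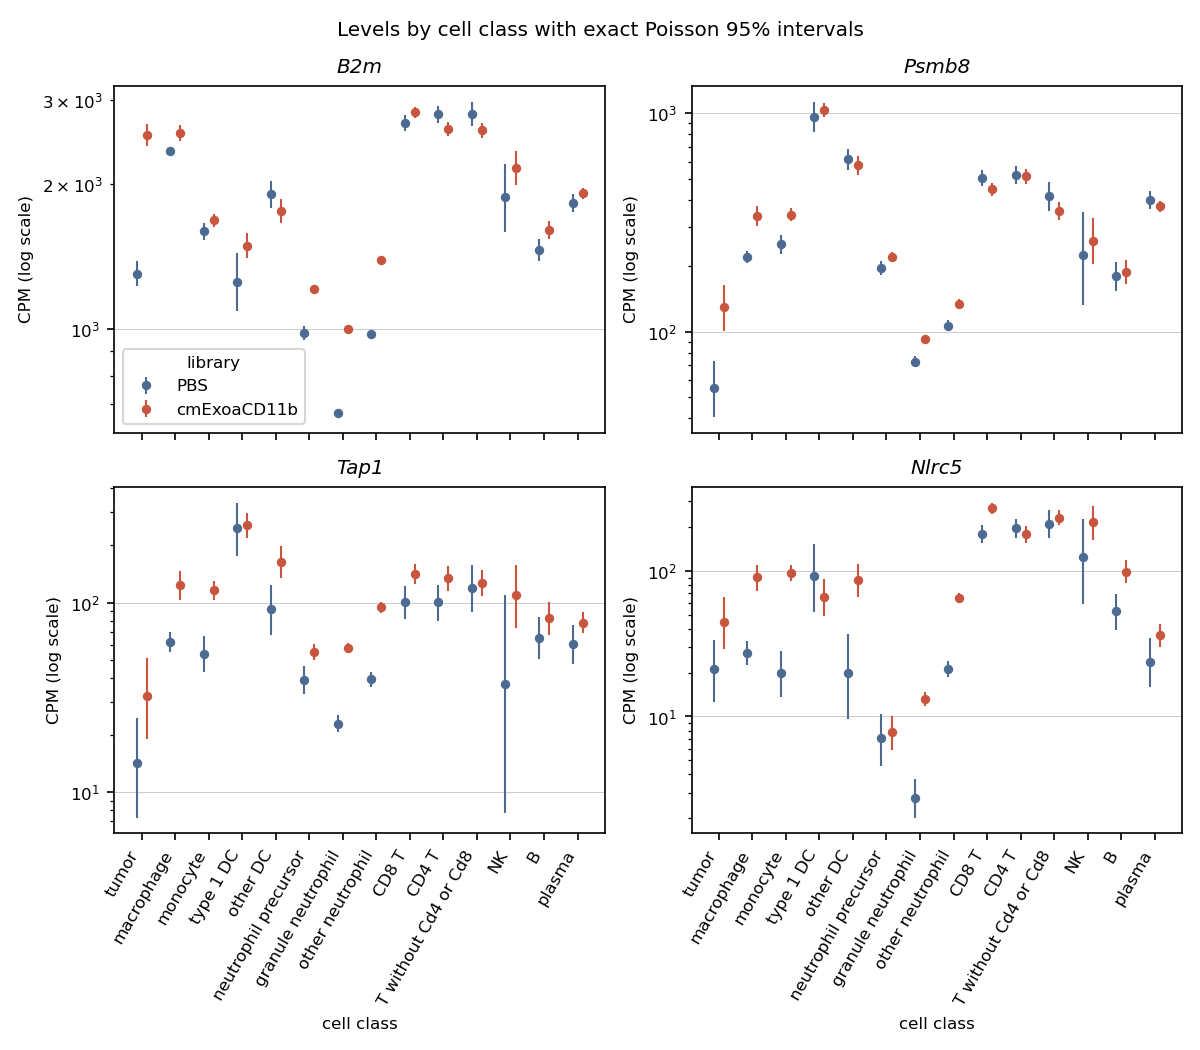
Levels of B2m, Psmb8, Tap1 and Nlrc5 (CPM, log scale) in the 14 cell classes, with PBS in blue, cmExoaCD11b in red and exact Poisson 95% intervals, which cover counting error only. Psmb8 and Tap1 peak in type 1 DCs in both libraries, and B2m of tumor cells moves from 1304 to 2529 CPM.

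Comparing treatments, the ratio of CPM in cmExoaCD11b to PBS is given with its exact conditional 95% interval, and a gene is called higher or lower at 1.5-fold if it had at least 50 UMIs over both libraries of the class. Of the members that reached this depth, 33 gene and class pairs were higher and 1 was lower. Intervals lay above 1 in 31 of the 33. Nlrc5 was higher in 9 of 13 classes, Tap1 in 5 of 12, Psmb9 in 5 of 13, Psmb10 in 5 of 14 and Tapbp in 4 of 13. H2-K1, H2-D1 and B2m were each higher in 1 of 14 classes, Psmb8 in 2 of 14 and Tap2 in 0 of 12.

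The share of members called higher was largest in tumor cells and macrophages. In tumor cells 4 of the 7 members with enough UMIs were higher, where 5.87% of all 4415 genes were. Macrophages had 6 of 10 higher (10.5% of all genes), monocytes 5 of 10 (13.3%), granule neutrophils 4 of 10 (13%) and other neutrophils 4 of 10 (12.3%). The shares were smaller in other DCs, with 3 of 10 higher (18.3%) and 1 lower (8.01%), and in lymphocytes. CD8 T cells had 2 of 10 higher (18.7%), CD4 T cells 1 of 10 (11.4%), NK cells 1 of 6 (17.0%), B cells 2 of 10 (8.72%) and plasma cells 1 of 10 (11.6%). Outside the other DCs no member was lower, where 15.2% of all genes were lower in tumor cells, 12.7% in macrophages, 7.54% in monocytes, 10.5% in type 1 DCs and 2.30% in neutrophil precursors. The same share was 2.06% in granule neutrophils, 25.9% in other neutrophils, 12.5% in CD8 T cells, 6.78% in CD4 T cells, 7.03% in the T cell gate without Cd4 or Cd8, 7.85% in NK cells, 3.66% in B cells and 11.8% in plasma cells. No member was higher in type 1 DCs (19.5% of all genes), neutrophil precursors (9.28%) or the T cell gate without Cd4 or Cd8 (14.0%).

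In tumor cells the median log2 ratio of the members was 0.96, against -0.13 over all genes tested in that class. It was 0.61 against 0.01 in macrophages, 0.54 against 0.08 in monocytes, 0.55 against 0.18 in granule neutrophils and 0.48 against -0.18 in other neutrophils. The medians lay closer in other DCs (0.10 against 0.11), type 1 DCs (0.07 against 0.05), CD8 T cells (0.13 against 0.09), B cells (0.18 against 0.08) and neutrophil precursors (0.19 against 0.09). NK cells had 0.21 against 0.05 and plasma cells 0.21 against 0.0084, with 1 member higher in each. In CD4 T cells the members' median was -0.0043 against 0.06, and in the T cell gate without Cd4 or Cd8 -0.09 against 0.07. The members' own counts and medians describe these 2 libraries and were not tested.

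**Figure D2:**
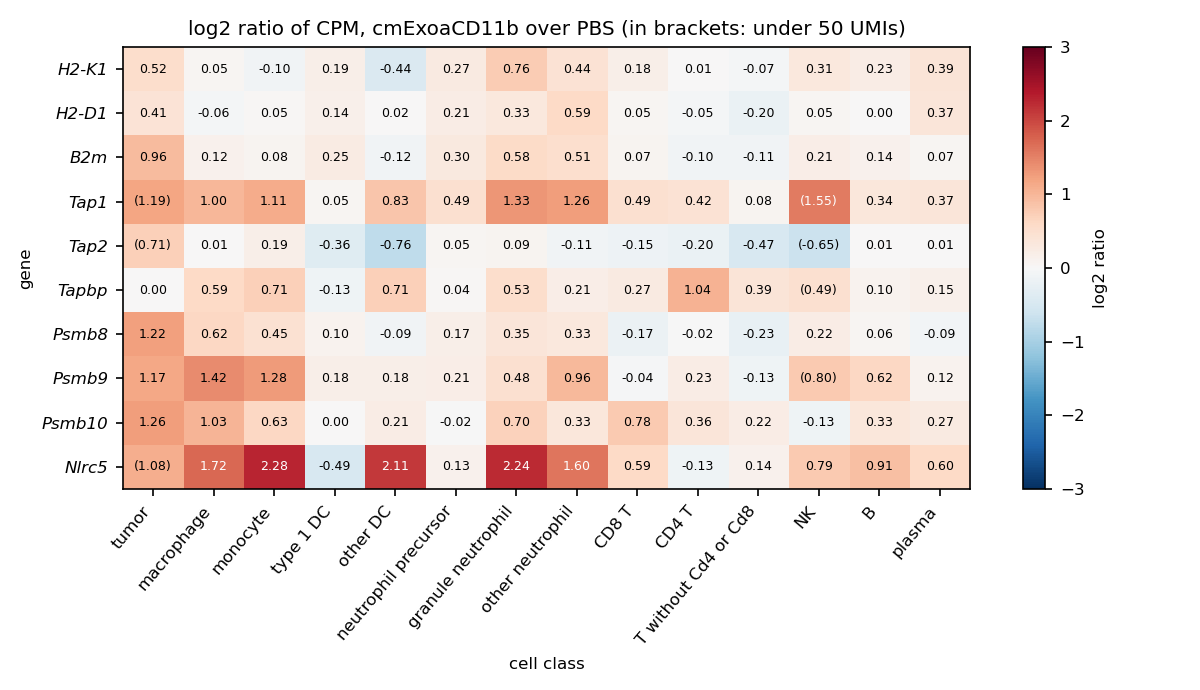
log2 ratio of CPM (cmExoaCD11b over PBS) for the 10 genes in rows and the 14 cell classes in columns, red for higher and blue for lower in cmExoaCD11b, with values under 50 UMIs in brackets. Among values with at least 50 UMIs, Nlrc5 and Tap1 are at their reddest in macrophages, monocytes, other DCs and the granule and other neutrophils. Type 1 DCs are not among these classes. The bracketed Tap1 values of NK cells (1.55) and tumor cells (1.19) are red too. Tap2 stays near 0 or below it in most classes.

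The inducible subunits that cut the peptides were higher in cmExoaCD11b tumor cells, macrophages and monocytes, with ratios of their sum of 2.34, 1.89 and 1.62. The sum of the loading genes Tap1, Tap2 and Tapbp had ratios of 1.23, 1.53 and 1.67 in the same classes. In monocytes the intervals of both sums overlapped (1.48 to 1.77 for the inducible subunits and 1.46 to 1.92 for the loading genes). Tumor cells held 55.4 CPM of Psmb8 in PBS and 129 in cmExoaCD11b, 2.33 times as much (1.59 to 3.44). Psmb9 was at 24.7 and 55.6 CPM (ratio 2.25, 1.25 to 4.11) and Psmb10 at 66.0 and 158 CPM (2.39, 1.69 to 3.40). In CPM each of the 3 inducible subunits was thus more than 2 times as high in the cmExoaCD11b tumor cells. These values rest on 47, 21 and 56 UMIs in PBS and 72, 31 and 88 in cmExoaCD11b. With each cell thinned to 1000 UMIs, which leaves few UMIs of these genes, the ratios were 0.711 for Psmb8, 1.6 for Psmb9 and 1.07 for Psmb10, so the direction of Psmb8 turned. In macrophages Psmb9 went from 84.6 to 226 CPM (2.67, 2.26 to 3.15), ahead of Psmb10 (89.8 to 183, 2.04, 1.71 to 2.43) and Psmb8 (220.1 to 338, 1.54, 1.36 to 1.74). Psmb9 also led in monocytes, with 89.1 and 217 CPM (2.43, 2.02 to 2.95), and in other neutrophils, with 62.8 and 122 CPM (1.95, 1.78 to 2.14). Psmb8 of monocytes, at 252 and 343 CPM (1.36), stayed within 1.5-fold.

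Type 1 DCs and the 3 T cell classes held more of these subunits in PBS than macrophages or monocytes did, and the intervals of their ratios included 1. The 3 subunits summed to 1707 CPM in PBS type 1 DCs and 1851 in cmExoaCD11b (ratio 1.08, 0.952 to 1.24). In CD8 T cells the sum was 869.7 and 889 CPM (1.02, 0.942 to 1.11), although the members of the sum differed. Psmb10 of CD8 T cells went from 116 to 199 CPM (1.72, 1.39 to 2.14), while Psmb8 was at 505 and 448 (0.887, 0.794 to 0.992). B cells had Psmb9 at 115 and 176 CPM (1.53, 1.21 to 1.94), the one inducible subunit past 1.5-fold in them, and the sum in B cells was at 349 and 433 CPM (1.24, 1.08 to 1.42).

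Psmb8, Psmb9 and Psmb10 take the places of Psmb5, Psmb6 and Psmb7 in the proteasome, so the share of the inducible genes among the UMIs of all 6 was measured. In tumor cells it was 22.8% in PBS (exact Clopper-Pearson 95% interval 19.3 to 26.6, 124 of 544 UMIs) and 40.6% in cmExoaCD11b (36.1 to 45.1, 191 of 471 UMIs). Tumor cells of PBS held the lowest share of the 14 classes, and in cmExoaCD11b its interval included the 41.9% of neutrophil precursors. The share was 52.4% and 63.4% in macrophages, 44.9% and 55.2% in monocytes, and 50.9% and 68.0% in other neutrophils. Intervals of the libraries were apart in these classes, in granule neutrophils (39.8% and 46.0%) and in CD8 T cells (68.6% and 75.1%), 6 of the 14 classes in all. They overlapped in the other classes, among them type 1 DCs (73.2% and 76.0%), neutrophil precursors (41.9% in both) and plasma cells (56.9% and 54.2%).

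Taking each inducible subunit with the one it replaces, the pairs did not move alike. In tumor cells Psmb10 went from 37.3% to 65.7% of its sum with Psmb7, and Psmb8 from 21.6% to 38.9% of its sum with Psmb5, both with intervals apart. Psmb9 went from 11.9% to 20.4% of its sum with Psmb6, with overlapping intervals. In macrophages the order was different. Psmb9 went from 35.5% to 55.0% and Psmb10 from 53.7% to 69.6%, both apart, and Psmb8 from 63.4% to 66.9%, overlapping. The constitutive genes were within 1.5-fold in nearly every class: Psmb6 and Psmb7 were called in 0 of 13 classes each, and Psmb5 was lower in 1 of 13, the CD8 T cells (164 and 103 CPM, 0.628, 0.507 to 0.777). Within that limit, intervals lay below 1 in 2 classes for Psmb6 and 1 for Psmb7, with lowest ratios of 0.716 and 0.745. The share also rises where constitutive genes fall. In CD8 T cells the inducible sum itself had a ratio of 1.02. In other neutrophils the inducible genes held 2370 of 4657 UMIs in PBS and 2924 of 4300 in cmExoaCD11b.

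**Figure D3:**
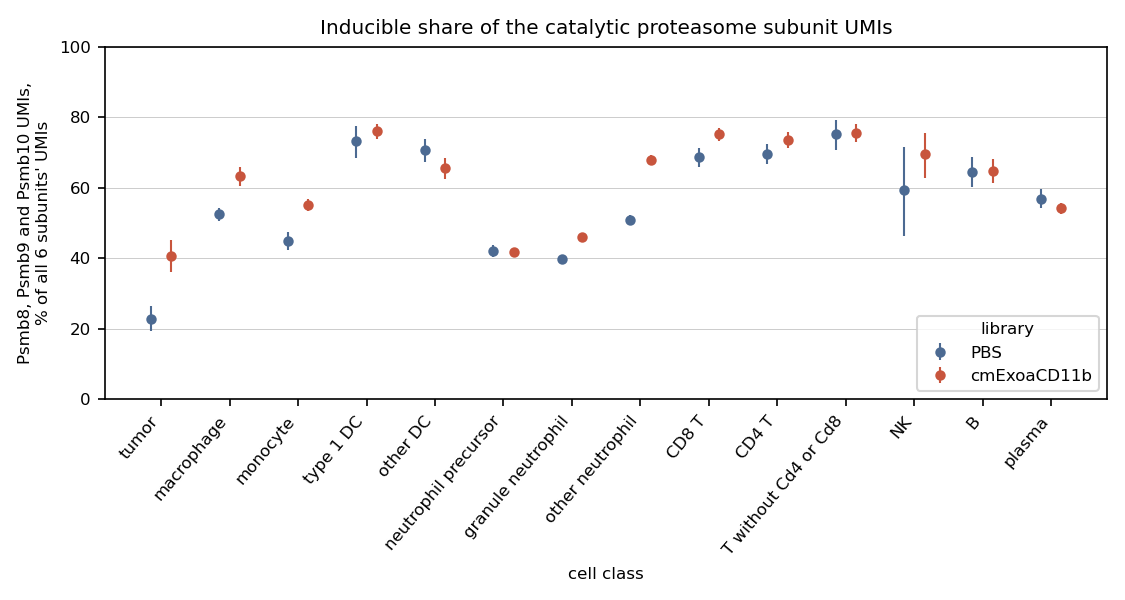
Share of Psmb8, Psmb9 and Psmb10 among the UMIs of these genes and Psmb5, Psmb6 and Psmb7 (%), by cell class, with PBS in blue, cmExoaCD11b in red and exact binomial 95% intervals for counting error. Tumor cells start at 22.8% and reach 40.6%, and type 1 DCs and the T cell gate without Cd4 or Cd8 sit above 70% in both libraries.

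Within the transporter, Tap1 and Tap2 differed in their response. Tap1 went from 22.9 to 57.8 CPM in granule neutrophils (ratio 2.52, 2.24 to 2.84) and from 39.4 to 94.4 in other neutrophils (2.40, 2.14 to 2.68). Macrophages held 61.9 and 124 CPM (2.0, 1.61 to 2.47), and monocytes 53.6 and 116 (2.16, 1.69 to 2.79). In each of these 4 classes Tap2 had an interval that included 1, with ratios of 1.06, 0.927, 1.0 and 1.14. Other DCs gave opposite directions, with Tap1 at 92.2 and 164 CPM (1.78, 1.25 to 2.57) and Tap2 at 136 and 80.6 (0.591, 0.406 to 0.858). That Tap2 value is the one member called lower in any class. The ratio of Tap2 also lay below 1 in the T cell gate without Cd4 or Cd8 (154 and 111 CPM, 0.721, 0.530 to 0.990). In tumor cells both were sparse, with 12 and 18 UMIs of Tap1 and 13 and 14 of Tap2, too few for a call.

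Tapbp, which bridges the transporter and the class I molecule, was higher in 4 classes of unlike kind. It went from 104 to 156 CPM in macrophages (1.51, 1.25 to 1.80), from 80.4 to 131 in monocytes (1.64, 1.33 to 2.02), from 158 to 258 in other DCs (1.63, 1.24 to 2.16) and from 90.6 to 187 in CD4 T cells (2.06, 1.59 to 2.70). In CD4 T cells it was the only member past 1.5-fold. Tumor cells held 93.1 and 93.2 CPM of Tapbp (1.00, 0.692 to 1.44), so that the 2.39-fold ratio of Psmb10 in the same cells was not shared by Tapbp.

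**Figure D4:**
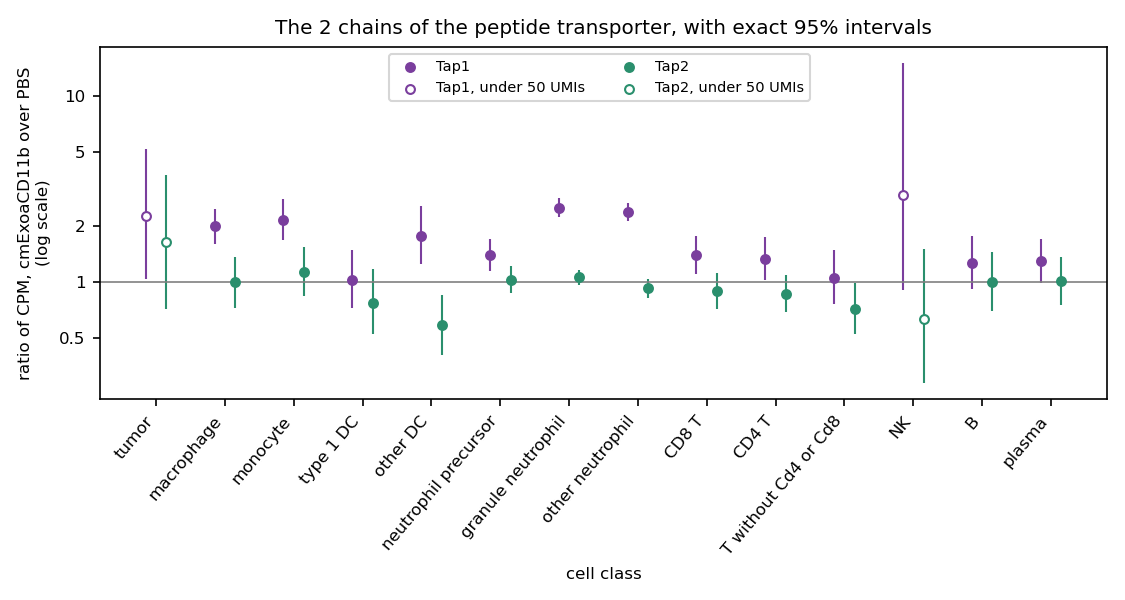
Ratio of CPM (cmExoaCD11b over PBS, log scale) of Tap1 (purple) and Tap2 (green) by cell class, with exact conditional 95% intervals and open points under 50 UMIs. Tap1 lies at 2.0 to 2.52 in macrophages, monocytes, granule neutrophils and other neutrophils, where Tap2 stays at 0.927 to 1.14.

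At the surface, tumor cells and neutrophils held the larger differences. B2m of tumor cells was at 1304 CPM in PBS and 2529 in cmExoaCD11b (1.94, 1.79 to 2.10), the highest ratio of B2m in the 14 classes. After thinning it was 1.37, below the 1.57 of granule neutrophils. The heavy chains of the same cells stayed within 1.5-fold, with H2-K1 at 1200.4 and 1719 CPM (1.43, 1.31 to 1.57) and H2-D1 at 886 and 1176 (1.33, 1.19 to 1.48). Granule neutrophils held 303 and 511 CPM of H2-K1 (1.69, 1.63 to 1.75), and other neutrophils held 1138 and 1716 CPM of H2-D1 (1.51, 1.47 to 1.54). B2m had ratios of 1.49 and 1.43 in granule and other neutrophils, just under the limit.

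Macrophages and monocytes were unlike neutrophils in these genes. H2-K1 of macrophages was at 1260.0 and 1304 CPM (1.03, 0.975 to 1.10), and H2-D1 at 1247 and 1197 (0.960, 0.902 to 1.02). B2m was at 2343 and 2554 CPM (1.09, 1.04 to 1.14), so that the surface genes were nearly level while Tap1, Psmb9 and Nlrc5 of the same cells were 2.0 to 3.29 times as high. Monocytes gave ratios of 0.930 for H2-K1, 1.03 for H2-D1 and 1.05 for B2m. Other DCs had less H2-K1 in cmExoaCD11b, 1375 against 1011 CPM (0.735, 0.660 to 0.818), and B2m at 1908 and 1759.8 CPM (0.922, 0.846 to 1.006). In the T cell gate without Cd4 or Cd8, H2-D1 (1765 and 1542 CPM, 0.874) and B2m (2803 and 2593 CPM, 0.925) had intervals below 1.

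Marker genes also moved with the treatment in some of these classes. Hbb-bs, a hemoglobin gene of red cells, was at 3.10 CPM in PBS and 921 in cmExoaCD11b macrophages, and at 9.93 and 946 in other neutrophils. S100a8 of monocytes was at 2967 and 8616 CPM, and C1qa, a complement gene of macrophages, at 2419 and 1411 in macrophages. Their part in the ratios of the members was not tested. With the empty-droplet profile subtracted, all 31 higher pairs with intervals above 1 stayed at 1.5-fold or more. These pairs were picked for being high in the same data, and free RNA was put at only 2.64% and 3.22% of UMIs. That estimate came from T and B cells, where Hbb-bs was at 12.1 CPM (CD8 T cells) and 15.4 (B cells) in cmExoaCD11b. The subtraction therefore cannot decide what the marker shifts above mean for the ratios. In sums over a class, a change in the mix of cells within its gate and a change of RNA per cell cannot be told apart.

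Nlrc5, the transactivator, had the widest span of ratios of any member. It went from 19.9 to 97.0 CPM in monocytes (4.87, 3.36 to 7.28), from 2.78 to 13.1 in granule neutrophils (4.73, 3.44 to 6.63) and from 27.4 to 90.1 in macrophages (3.29, 2.49 to 4.35). Other neutrophils held 21.3 and 64.8 CPM (3.04, 2.63 to 3.52). The other DCs held 10 UMIs in PBS and 58 in cmExoaCD11b, a ratio of 4.32 with a wide interval of 2.19 to 9.48. Myeloid classes of cmExoaCD11b thereby reached 64.8 to 97.0 CPM, apart from the granule neutrophils and the precursors (7.08 and 7.77 CPM), while type 1 DCs had 92.8 and 66.0 CPM (0.712, 0.392 to 1.37).

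Among lymphocytes the ratios of Nlrc5 were 1.87 or less. CD8 T cells held 179.7 and 269.9 CPM (1.5, 1.26 to 1.79) and B cells 52.7 and 98.8 (1.87, 1.34 to 2.65). CD4 T cells held 197 and 179 CPM (0.911, 0.742 to 1.12). NK cells (1.73, 0.877 to 3.80) and plasma cells (1.52, 0.995 to 2.38) passed 1.5-fold with intervals that included 1. Tumor cells had 18 and 25 UMIs of Nlrc5, under the depth for a call.

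Shares of cells with a UMI were compared at equal depth. After each cell was thinned to 1000 UMIs, Nlrc5 was seen in 3.39% of PBS and 13% of cmExoaCD11b macrophages, 1.80% and 14.9% of monocytes, and 2.56% and 6.81% of other neutrophils, each with exact Clopper-Pearson intervals apart. Tap1 was seen in 1.44% and 6.28% of granule neutrophils and in 3.99% and 8.45% of other neutrophils, also with intervals apart. Its intervals overlapped in macrophages (5.21% and 9.16%) and monocytes (4.50% and 10.6%). Those of Nlrc5 overlapped in granule neutrophils (0.443% and 1.36%) and other DCs (3.23% and 5.66%). Without thinning, Tap1 was seen in 29.7% and 52.9% of granule neutrophils. No class is known to lack these genes, so no background share could be taken from the cells. Empty droplets held 41.3 and 95 CPM of Tap1 and 24.8 and 65.5 of Nlrc5, and the part of free RNA in the shares was not tested.

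Counted per cell, the surface genes H2-K1, H2-D1 and B2m were spread through the neutrophils. Thinned granule neutrophils held a median of 1 UMI of the 3 genes per 1000 UMIs in PBS and 2 in cmExoaCD11b, and 21.2% and 10.5% of the cells held none. Other neutrophils held a median of 2 and 4, and cells with none made up 11.8% and 4.53%. The quartiles were 1 and 4 in PBS and 2 and 6 in cmExoaCD11b other neutrophils, so the whole middle of the distribution was higher. Macrophages held a median of 4 in both libraries, and CD8 T cells 6 and 7.

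Tumor cells are few, so their single cells are described. The 34 PBS cells ranged from 715 to 80587 UMIs and the 30 cmExoaCD11b cells from 1201 to 53273, with medians of 19098.5 and 9359. All cells with at least 10000 UMIs, 21 in PBS and 15 in cmExoaCD11b, held Xist. Of the shallower cells only 2 of 13 and 3 of 15 did, so the sex-linked check does not bear out the tumor label of most shallower cells. They kept the label of their keratin gate, and with each cell weighted equally they count as much as the deep cells. In the deep cells B2m ranged from 111 to 3982 CPM in PBS with a median of 1206, and from 476 to 6596 CPM in cmExoaCD11b with a median of 1958, so single cells of the libraries overlapped widely. The summed level of the 10 members ran from 407 to 9039 CPM (median 3848) in deep PBS cells and from 1667 to 15919 CPM (median 4759) in deep cmExoaCD11b cells.

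A few cells held much of the tumor signal. The 5 deepest cells held 38.0% of the class's UMIs in PBS and 41.4% in cmExoaCD11b. Of the inducible subunit UMIs, 64 of 124 (51.6%) in PBS and 111 of 191 (58.1%) in cmExoaCD11b came from the 3 cells with most of them, and 12 cells of each library had none. Summed over the class, the 10 members were at 3680 CPM in PBS and 5962 in cmExoaCD11b (1.62, 1.54 to 1.70), the largest ratio of the sum in the 14 classes when UMIs were summed. With each cell weighted equally the ratio was 1.26, and with each cell thinned to 1000 UMIs it was 1.18. Other neutrophils (1.47 and 1.49) and granule neutrophils (1.42 and 1.42) then lay above tumor cells. For H2-K1 these settings gave 1.09 and 1.29, and for H2-D1 1.03 and 0.830, so the direction of H2-D1 turned with thinning. For B2m they gave 1.55 and 1.37, and for the inducible subunits together, at 2.34 over the summed class, 1.59 and 1.07. The thinned cells held only 0.312 and 0.333 UMIs per cell of the 7 members other than H2-K1, H2-D1 and B2m, so single ratios of these genes cannot be read at that depth.

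Other choices of tumor cells were made after the data were seen, and they too summed UMIs over cells. For the sum of the members, B2m and the inducible subunits together they gave ratios close to those of the whole class. Cells with at least 10000 UMIs held most UMIs of the class, so their summed ratios had to lie near those of the whole class. In them the sum had a ratio of 1.68, B2m 1.96 and the inducible subunits 2.51. Leaving out the 5 deepest cells of each library gave 1.60, 1.96 and 2.50. The 15 PBS and 13 cmExoaCD11b cells with Xist and without Ptprc gave 1.61, 1.85 and 2.38. Some other values moved more. Without the 5 deepest cells Psmb10 had 3.09, Tapbp 0.805 and the loading genes together 0.951, against 2.39, 1.00 and 1.23 in the whole class. All of these cover counting error only, and the difference in depth between the libraries moves with the treatment and was examined only by the thinning.

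**Figure D5:**
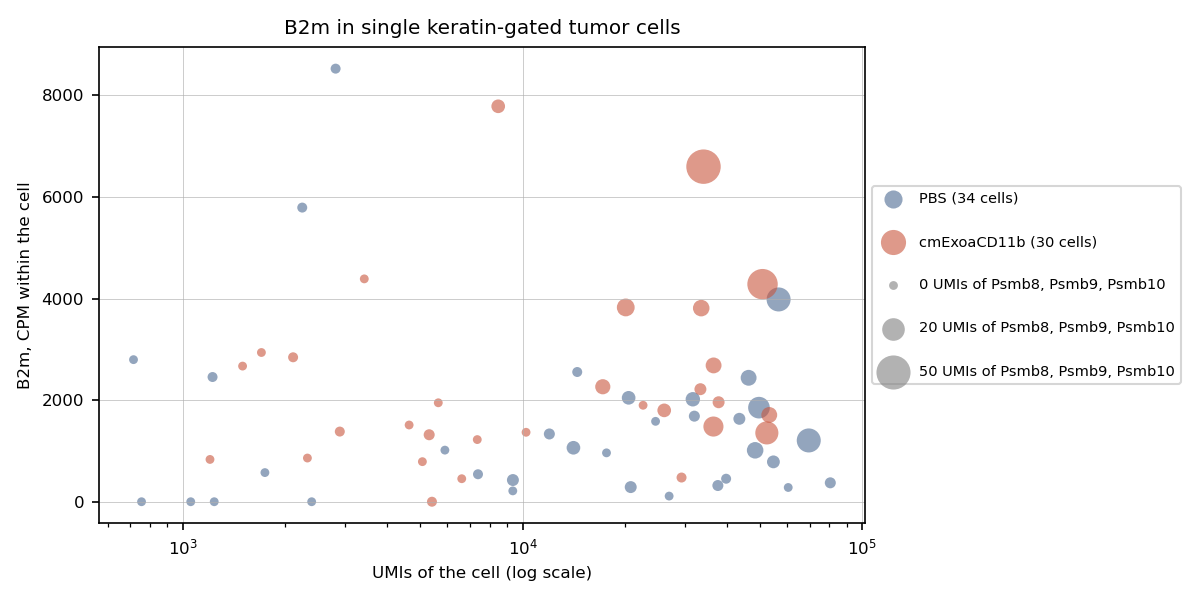
B2m (CPM within the cell) against the UMIs of the cell (log scale) for the 34 PBS (blue) and 30 cmExoaCD11b (red) tumor cells, with point size for the UMIs of Psmb8, Psmb9 and Psmb10. Cells of the libraries overlap, and the large points are cells with many UMIs.

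Over the other classes the sum of the 10 members had ratios from 0.931 to 1.44. Granule neutrophils (1999 and 2857 CPM, 1.43) and other neutrophils (3364 and 4858 CPM, 1.44) came next to tumor cells. Macrophages (5486 and 6221 CPM) and monocytes (4039.9 and 4579 CPM) both had 1.13, since H2-K1, H2-D1 and B2m held most UMIs of the sum. The sum was lower in other DCs (5845 and 5548 CPM, 0.949, 0.904 to 0.997) and in the T cell gate without Cd4 or Cd8 (8535 and 7948 CPM, 0.931, 0.896 to 0.968).

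Across classes and libraries (28 points of log2 CPM with a pseudocount of 10) the correlation between members varied widely. It was highest for Tap1 with Psmb9 (Pearson r = 0.924), then for Psmb8 with Psmb9 (0.918) and H2-K1 with B2m (0.890). Members of like role were not always the closest, since Tap1 with Tap2 had 0.720, and Psmb10 had 0.759 with B2m and 0.728 with Psmb8. The correlation was lowest for H2-D1 with Psmb9 (0.0972). The points of a library share its depth and free RNA and are no independent samples, so these values are descriptions.

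The genes whose levels were most like the mean profile of the members, of 3715 compared, were Itgb7 (r = 0.896), Fyn (0.895), Idnk (0.895) and Anxa6 (0.884). Itgb7, an integrin chain of lymphocytes, was at 334 and 175 CPM in type 1 DCs and at 1.18 and 1.79 in tumor cells. Fyn, a kinase of T cell receptor signaling, was at 434 and 608 CPM in CD8 T cells and at 1.70 and 4.18 in granule neutrophils. Anxa6, a membrane-binding annexin, was at 311 and 249 CPM in NK cells and at 2.08 and 2.54 in granule neutrophils. Idnk, a gluconate kinase, spanned less, at 98.9 and 110.4 CPM in CD4 T cells and 22.7 and 24.5 in granule neutrophils. These correlations run over the same 28 points, which are no replicates, and nothing about shared function follows from them.

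Beyond the 10 members, 32 other genes of the class I pathway were listed, while H2-K2 was not analysed here. They gave 84 pairs of gene and class that were higher and 16 that were lower. In tumor cells 7 of 21 were higher, in macrophages 8 of 28, in monocytes 6 of 26, in granule neutrophils 10 of 31 and in other neutrophils 11 of 29, where 5.87%, 10.5%, 13.3%, 13% and 12.3% of all genes were. Shares were as large in other DCs, with 9 of 25 higher (18.3% of all genes), type 1 DCs with 6 of 22 (19.5%) and plasma cells with 8 of 28 (11.6%). NK cells had 2 higher and 3 lower of 15 (17.0% and 7.85% of all genes), plasma cells had 3 lower of 28 (11.8%), and no other class had more than 2 lower. The list includes genes of interferon signaling and was not chosen apart from results of these data. Irf9, H2-T22 and Irf1 were among the genes of the list that were higher in the most classes.

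Irf9, the DNA-binding part of a factor complex downstream of type I interferon receptors, was higher in 11 of 12 classes, and went from 10.3 to 52.3 CPM in granule neutrophils (5.08, 4.31 to 6.02). Irf1, an interferon regulatory factor of class I promoters, was higher in 6 of 13 classes, up to 4.12-fold in monocytes (67.9 and 279.7 CPM). In NK cells Irf1 was lower, at 423 and 231 CPM (0.545, 0.353 to 0.856). The neutrophil precursors held 21 UMIs of Irf9 in PBS and 216 in cmExoaCD11b (5.04, 3.21 to 8.31). At 1.5-fold 0 of 10 members were higher in them, where 9.28% of all genes were. Below that limit 6 of 10 members had intervals above 1, and the sum of the 10 had a ratio of 1.18 (1.16 to 1.21). The share of all genes with intervals above 1 was not measured, so this count has no background. With the median gene of the class scaled to a ratio of 1, the sum had a ratio of 1.11.

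The nonclassical class I genes were higher where the classical chains were not always so. H2-Q7 went from 37.7 to 156 CPM in tumor cells (4.14, 2.73 to 6.41), from 9.28 to 45.1 in granule neutrophils (4.86, 4.09 to 5.81) and from 21.2 to 74.1 in neutrophil precursors (3.49, 2.74 to 4.50). H2-Q6 of tumor cells was at 11 UMIs in PBS and 47 in cmExoaCD11b (6.50, 3.32 to 13.9), and in monocytes it was lower (42.4 and 25 CPM, 0.590). These genes are near-identical to each other, so their values are uncertain one by one. H2-T22 was higher in 8 of 14 classes with a median ratio of 1.64, and H2-T23, the mouse Qa-1 chain read by NK receptors, in 4 of 14. H2-T24 was higher in all 3 classes where it had enough UMIs.

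The listed chaperones and the genes of the proteasome, its activator, peptide trimming and the membrane channel were called in up to 4 of 14 classes. Of all genes, 5.87% to 19.5% were higher, depending on the class. Hspa5, a chaperone of the endoplasmic reticulum, had the most of these calls. It was higher in tumor cells (549 and 986 CPM, 1.80), type 1 DCs (550.3 and 828 CPM, 1.5) and other DCs (587 and 1058 CPM, 1.80) and lower in NK cells (684 and 431 CPM, 0.630). Sec61a1, a subunit of the channel in the same membrane, was higher in 3 of 13 classes, and Pdia3, which helps to load class I, was higher in plasma cells (1.87) and lower in CD8 T cells (0.660). Tapbpl, a relative of tapasin, was called in 0 of 8 classes, and Canx was higher in 0 and lower in 1 of 14. Calr, the chaperone calreticulin, was higher in other DCs (331 and 545 CPM, 1.65) and plasma cells (785 and 1332 CPM, 1.70) and lower in other neutrophils (200.1 and 101 CPM, 0.505, 0.469 to 0.544). Psme1 and Psme2, the subunits of the proteasome activator PA28, were each higher in 1 class, Psme1 in macrophages (181 and 279 CPM, 1.54) and Psme2 in type 1 DCs (334 and 553 CPM, 1.66). Erap1, which trims peptides in the endoplasmic reticulum, was higher in CD4 T cells (22.4 and 45.0 CPM, 2.01) and B cells (20.7 and 37.3 CPM, 1.80).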

How the data were processed

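For 2 libraries the authors deposited raw UMI counts of genes in barcodes, not normalized and with empty droplets included, made with Cell Ranger 7.1.0 per the file headers. The genome build is not given in the sources used here. The members, gene lists and tests were chosen with earlier results of these data known, and gate thresholds were set after marker distributions had been seen. Barcodes were called as cells above a ranked cut-off (the 99th percentile of the top 3000 divided by 10) or by a multinomial test against empty droplets (at least 500 UMIs, 10000 simulations, false discovery rate 0.01). Called cells needed 200 genes or more and no more than 20% mitochondrial UMIs. The highest Scrublet scores were removed at 0.8% per 1000 cells, 421 and 452 cells, since Scrublet's automatic threshold marked 0. A gate needed at least 3 marker UMIs (5 for keratins, 10 for plasma cells and precursors), and 6 of 64 tumor cells, 68 of 528 macrophages, 69 of 302 monocytes and 194 of 1324 T cells lay within 1 UMI of it. The markers' share of a cell's UMIs (the gate share) also had to reach 0.5 of their share in empty droplets, or 1.0 for granule genes and precursors. Cells in no other gate were taken as other neutrophils at 0.25. Macrophages needed more macrophage than monocyte marker UMIs. Cells in several gates (249 and 173) or in none (956 and 834) entered no class. UMIs were summed per class and library. All intervals cover counting error only. Genes named are the 10 members, the listed pathway genes and the 5 most alike genes, and some items that these rules select are not reported here. The ratio was tested on counts simulated with known folds and counting error alone, which cannot show how it behaves under spread between cells or mice. Python 3.11.15, scanpy 1.11.5, numpy 2.4.6 and scipy 1.17.1 were used.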

Additional observations from a re-analysis of the deposited data

Results flagged for a closer look

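The 10 members also differed outside the 14 classes. In cells that met no gate (956 in PBS and 834 in cmExoaCD11b) their sum was at 3446 and 4452 CPM, a ratio of 1.29 (1.25 to 1.33). These cells entered no class, and their median mitochondrial share was 0.479% in PBS and 4.66% in cmExoaCD11b. In empty droplets the sum was at 4805 and 5362 CPM, a ratio of 1.12 (1.09 to 1.14), but single members moved more, with Tap1 at 41.3 and 95 CPM and Nlrc5 at 24.8 and 65.5. Both were noted because they are signals in barcodes that the comparisons between classes did not use. Of the remaining cells outside the classes, those in several gates had a ratio of the sum of 1.12 (1.10 to 1.14), those of other cell types 1.52 (1.36 to 1.71), and T cells with both Cd4 and Cd8 had 0.780 (0.693 to 0.879).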

How the results depend on the processing

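With the cells, gates, doublets, mitochondrial limit, free RNA, scaling or UMI minimum changed one at a time, 28 to 38 pairs of member and class were higher, against 33. Thinning each cell to 1000 UMIs left 18 pairs, and 38 of the other pathway genes' pairs against 84, with fewer genes reaching 50 UMIs. The 31 higher pairs with intervals above 1 were picked for being high in these same data. A changed UMI minimum cannot move their ratios, and the choices of tumor cells touch only the tumor pairs. Of the 31, 25 stayed at 1.5-fold or more with thinning, 25 with the median gene scaled to a ratio of 1 and 26 with gate thresholds doubled. All stayed above 1 under each alternative except thinning, where 30 did. The exception was Psmb8 of tumor cells, at 0.711, and thinning also left Tap1 and Nlrc5 of cmExoaCD11b tumor cells with 0 UMIs (ratio 0). Classes with a higher share of cells holding Tap1 numbered 2 after thinning to 1000 UMIs, 4 without thinning and 1 after thinning to 500. The choices of tumor cells and the doubled gate share were added after seeing the data. No paired analysis was possible because there is 1 library per treatment, and no library could be left out. Tumor and NK cells had the fewest members with enough UMIs, 7 and 6 of 10. Over all genes 4415 reached 50 UMIs in tumor cells and 2987 in type 1 DCs, where all 10 members did.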
